A study of Mus musculus with 30 samples.

Results

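Open chromatin of type A spermatogonia (SG-A) was compared with that of pachytene spermatocytes (pacSC) on chromosomes 1 to 19 of the mouse. The comparison took every autosomal region of the authors' ATAC-seq peak lists for the 2 stages, 85773 in SG-A and 32902 in pacSC, which is 118675 of the 185395 regions in the 4 lists of the series. A region of one list was called shared when at least 1 bp of it lay in a region of the other. SG-A came from C57BL/6 mice at day 8 after birth (3 libraries) and pacSC from adults of the same strain (2 libraries). Cells of both stages were taken from dissociated testes, and no mutation or treatment is named for any group. The list of PriSG-A (primitive type A spermatogonia from C57BL/6 mice at day 6, 3 libraries) and that of rST (round spermatids from adults, 2 libraries) served as readouts that the comparison itself did not use. Stage, age and number of libraries differ together between SG-A and pacSC and cannot be told apart. The identity of the cells could not be checked against marker genes, because no annotation of the files' genome assembly was used and no gene is named.

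ATAC-seq uses the transposase Tn5, which cuts and tags DNA where nucleosomes leave it accessible, so that reads pile up over active promoters, enhancers and other open sites. Type A spermatogonia are mitotic germ cells that hold the stem cell pool of the testis and feed differentiation. Pachytene spermatocytes are in prophase of the first meiotic division: homologous chromosomes are paired along the synaptonemal complex, their chromatin is arranged in loops on a protein axis, and telomeres are attached to the nuclear envelope. In the mouse the centromere of an autosome lies near coordinate zero, and the distal end is where coordinates are highest.

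Each stage has a single list over all its libraries, so replicate error is not measurable and no p-value was computed between stages. Shares carry 95% Wilson binomial intervals, medians carry 95% order-statistic intervals, and width-matched differences carry 95% normal intervals. All of them cover counting error only and treat neighbouring regions as independent. Read depth is unknown, so absence from a list is not a measured loss of accessibility. The authors' signal value of a region is an area over the region that grows with its width (Spearman 0.883 with width over all SG-A regions and 0.892 over all pacSC regions). Divided by width, it stayed at least 1.301 below the region's −log10 q in SG-A and 1.312 below it in pacSC, and 1.301 is −log10 of 0.05. The signal per bp used here may thus be a mean excess of −log10 q over that threshold, but the peak caller is not named and this meaning was not established. It is treated as the authors' score: levels and differences are given, and they are not folds of accessibility. Its median was 0.601 in SG-A and 0.580 in pacSC, and median width was 179 bp and 188 bp. The most frequent width was 100 bp in each list, at 6.35% of SG-A and 4.96% of pacSC regions.

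Most SG-A regions had no pacSC counterpart, and width separated the kept from the unkept. Over all widths 14304 SG-A regions were listed again, which is 16.7% (16.4 to 16.9). Kept regions had a median width of 1188 bp and unkept ones of 137 bp, and 45.4% of all SG-A bases lay in kept regions. With the SG-A list shortened to the length of the pacSC list by signal value, 36.5% were kept, and with a reciprocal overlap of 50% in place of 1 bp, 6.58%. Of regions under 150 bp, 4.12% were kept (3.93 to 4.33, 1609 of 39010). Each width class includes its lower bound and not its upper one. The share was 6.30% at 150 to 300 bp and 10.2% at 300 to 600 bp. It was 28.6% at 600 to 1000 bp (27.5 to 29.6), 69.1% at 1000 to 2000 bp (68.2 to 70.0) and 78.6% at 2000 bp or more (76.7 to 80.3). The 3 widest classes, 600 bp and over, thus held the large steps, and their intervals did not overlap.

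Within a width class, regions of higher signal per bp were kept more often, most visibly above 600 bp. At 1000 to 2000 bp, regions were ranked by SG-A signal per bp into 3 equal groups, of which 37.6% (36.0 to 39.3), 75.8% and 93.9% (93.0 to 94.7) were kept, from lowest to highest. At 600 to 1000 bp the values were 13.8%, 22.8% and 49.1%. Below 150 bp they were 3.72%, 3.53% and 5.12%, so that signal per bp separated the narrowest regions little.

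From the pacSC side, 15339 of 32902 regions, or 46.6% (46.1 to 47.2), were newly listed. Among regions of −log10 q 5 or more in each list, this share was 15.5%. They were narrow as well: their median width was 113 bp, and that of the 17563 pacSC regions already in SG-A was 324 bp. Of pacSC regions under 150 bp, 64.8% were new (64.0 to 65.6), against 15.5% at 600 to 1000 bp (14.4 to 16.7) and 8.81% at 1000 to 2000 bp (7.72 to 10.0). Of the 141 pacSC regions of 2000 bp or more, 14 were new.

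The rule of 1 bp sat in a thinly filled range. Only 89 kept SG-A regions shared fewer than 20 bp with pacSC, and 54 unkept ones ended fewer than 20 bp from a pacSC region. The median distance of an unkept SG-A region to the nearest pacSC region was 25.3 kb, and 9.22% lay within 1000 bp. Unkept SG-A regions of 1000 bp or more had a similar median distance, 28.7 kb, and 2.58% of them lay within 1000 bp.

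Some of the strongest SG-A regions had no pacSC counterpart. Among those of 500 to 5000 bp, the 4 of highest signal per bp without a counterpart were chosen. The first spanned chr5:65193649-65195784 (2136 bp, 5.30 per bp, −log10 q 11.5), and the nearest pacSC region was 202283 bp away. The second spanned chr2:34759835-34761154 (1320 bp, 5.22 per bp), 32929 bp from a pacSC region. The other two lay at chr12:70328692-70329718 (4.97 per bp) and chr16:55821540-55822960 (4.96 per bp). All 4 were listed in PriSG-A and none in rST, and of all unkept SG-A regions of 1000 to 2000 bp 93.8% were in PriSG-A and 1.29% in rST.

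By the same rule, 4 pacSC regions without an SG-A counterpart were named. They spanned chr14:120749209-120750178 (970 bp, 4.75 per bp), chr5:142150913-142151620 (708 bp, 4.08 per bp), chr9:111078784-111079356 (573 bp, 3.79 per bp) and chr19:54083501-54084349 (849 bp, 3.76 per bp). They lay 4.33, 10.4, 13.0 and 7.26 Mb from the distal end of their chromosome. None of the 4 was listed in PriSG-A, and those on chromosomes 14 and 19 were listed in rST. Of all new pacSC regions of 600 to 1000 bp, 8.01% were in PriSG-A and 25.5% in rST.

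Shared regions were mostly narrower in pacSC and lay inside the SG-A region. In 10459 cases, 73.1% of the kept SG-A regions, 1 SG-A region met exactly 1 pacSC region and neither met another. These pairs had a median width of 1133 bp in SG-A and 474 bp in pacSC. The median ratio of pacSC to SG-A width was 0.553 (0.546 to 0.561, quartiles 0.319 and 0.830). The pacSC region was the narrower one in 8717 pairs, 83.3%. It was at most 0.5 times as wide in 4591 pairs, or 43.9%, and at least 2 times as wide in 554, or 5.30%. It lay wholly inside the SG-A region in 73.9% of pairs, enclosed it in 9.37% and overlapped it in part in 16.8%.

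Narrowing rested on the wider SG-A regions. The median width ratio was 0.496 at an SG-A width of 1000 to 2000 bp (0.488 to 0.505, 5064 pairs) and 0.445 at 2000 bp or more (0.421 to 0.466, 898 pairs). It was 0.877 at 150 to 300 bp, and 1.48 under 150 bp (1.39 to 1.55, 1179 pairs). Grouping by one list's width favours the opposite change in the other list, so the pairs were also grouped by pacSC width. Then the ratio was 0.222 for pacSC regions under 150 bp, 0.446 at 300 to 600 bp, 0.743 at 1000 to 2000 bp and 0.903 at 2000 bp or more (0.842 to 0.946, 74 pairs). Both groupings gave a median below 1 for every class from 150 bp upward.

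Where the pacSC region lay inside, it often held the SG-A summit. In these 7726 pairs a median of 314 bp was missing at each side, so neither side was favoured, but within a pair the larger side held a median of 66.1% of the missing bases. The centre of the pacSC region lay in the middle 0.2 of the SG-A width in 61.8% of these pairs, and in 40.6% of those where it was at most 0.2 times as wide. The pacSC region covered 44.7% of the SG-A width on average, and it held the SG-A summit, the base of strongest signal, in 85.4% of pairs (84.6 to 86.2). Where the pacSC region inside was at most 0.5 times as wide, it covered 27.5% of the width and held the summit in 75.4% (74.1 to 76.6, 4398 pairs). Where it was at most 0.2 times as wide, it covered 11.4% and held the summit in 50.5% (48.0 to 53.0, 1538 pairs). The share holding the summit was thus well above the share of width covered in each of these sets.

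A pair near the middle of all pairs shows the usual case. The SG-A region chr2:145728697-145729635 was 939 bp wide with a signal of 3.40 per bp. Its pacSC counterpart, chr2:145728859-145729381, was 523 bp wide with 1.46 per bp, and the summits lay 15 bp apart. A second such pair joined SG-A chr3:85690664-85692015 (1352 bp, 4.17 per bp) to pacSC chr3:85691104-85691850 (747 bp, 1.81 per bp), with summits 149 bp apart. Both places were also listed in PriSG-A and rST.

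The 4 pairs of strongest narrowing, by the rule for named pairs, had summits 7 to 235 bp apart. This did not hold for all strongly narrowed pairs. At chr12:113382063-113385661 the width ratio was 0.0734, close to the 0.0697 of the pair on chromosome 8 below, and the summits lay 2146 bp apart. The SG-A region chr2:136939124-136943762 was 4639 bp wide (3.68 per bp), and pacSC held 255 bp of it (0.359 per bp) with a summit 7 bp away. At chr5:14983961-14987879, 3919 bp in SG-A met 254 bp in pacSC with summits 49 bp apart. At chr8:66683010-66685923, 2914 bp met 203 bp, 84 bp apart, and at chr14:22804496-22809240, 4745 bp met 293 bp, 235 bp apart.

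Signal per bp was lower in pacSC in most pairs. The medians over the 10459 pairs were 2.55 in SG-A and 0.880 in pacSC, and the median difference, pacSC minus SG-A, was -1.41 (-1.45 to -1.37). The median ratio was 0.430 (0.421 to 0.437), a ratio of scores whose zero may be set by the threshold. The pacSC value was the higher one in 1678 pairs, 16.0%. By SG-A width, the median difference was 0.0206 under 150 bp (-0.0111 to 0.0445), 0.0558 at 150 to 300 bp, -0.298 at 300 to 600 bp and -2.07 at 1000 to 2000 bp (-2.11 to -2.03). By pacSC width it was below 0 in every class, from -0.521 under 150 bp (-0.569 to -0.461) to -1.95 at 1000 to 2000 bp (-2.02 to -1.85). The narrow classes therefore differed between the groupings.

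To show pairs at the extremes, the rule named those with the widest gap between their percentiles in the 2 lists. Since the lists differ in length and the choice fixes which value is low, these are descriptions and no measure of change. In the first 4 the SG-A value was the low one. At chr15:100111109-100111332 a 224 bp SG-A region of 0.105 per bp met the 700 bp pacSC region chr15:100110929-100111628 of 2.23 per bp, with summits 2 bp apart. At chr15:102964356-102964582 a signal of 0.106 per bp in SG-A met 1.91 in pacSC, with summits 3 bp apart. These places lay 3.38 and 0.530 Mb from the distal end. At chr12:4744739-4745001 the values were 0.209 and 2.81, and at chr3:152629716-152630001 they were 0.236 and 2.85. Their distances from the distal end were 116 and 6.97 Mb.

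In the other 4 the pacSC value was the low one. At chr3:19794336-19795688 the SG-A region was 1353 bp wide with 5.01 per bp, and the pacSC region was 424 bp wide with 0.0920 per bp. At chr4:117806910-117808177 the values were 4.91 and 0.100 per bp, at chr7:51751457-51752367 they were 4.56 and 0.123, and at chr3:87420894-87421834 they were 3.97 and 0.0984. All 4 were listed in PriSG-A and none in rST. Of all pairs with an SG-A width of 1000 to 2000 bp, 99.6% were in PriSG-A and 29.1% in rST, and at 600 to 1000 bp these shares were 93.2% and 11.8%.

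The pairs strongest in both lists kept their width. The SG-A region chr1:24618324-24623073 (4750 bp, 56.6 per bp) met a pacSC region of 4760 bp with 41.4 per bp. On chromosome 2, regions at 98506329-98507551 and 98502333-98503204 had 55.6 and 41.3 per bp in SG-A, and 33.2 and 25.6 in pacSC. On chromosome 6, the region at 103598982-103599363 had 41.8 and 27.5 per bp. Their pacSC to SG-A width ratios lay between 0.983 and 1.002, and all 4 were listed in PriSG-A and rST. Signal of this size was far from the list median of 0.601 per bp, and repeated sequence was not screened for.

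Summits lay close together. The median distance between the SG-A and pacSC summits of a pair was 64 bp (61 to 66, quartiles 18 and 171 bp), which was 8.22% of the SG-A width at the median. The 2 summits lay within 50 bp in 44.1% of pairs, within 200 bp in 79.9% and within 500 bp in 97.2%. The shift had no side: 49.3% of pacSC summits lay distal of the SG-A summit, and the signed median was 0 bp. The median distance was 31 bp for SG-A regions under 150 bp (28 to 34), 73 bp at 1000 to 2000 bp (70 to 78) and 137 bp at 2000 bp or more (115 to 146). Relative to SG-A width, it was 32.3% under 150 bp, 20.6% at 150 to 300 bp and 5.36% at 1000 to 2000 bp. The short distances in narrow regions were therefore a larger part of the region, and they do not show a closer alignment.

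The distances did not fall off evenly. In the 5064 pairs with an SG-A width of 1000 to 2000 bp, 23.9% of summits lay under 20 bp apart, and the share per 20 bp fell to 3.06% at 100 to 119 bp. It was higher again at 120 to 139 bp (4.56%) and stayed at 3.95% or more up to 199 bp, before 2.47% at 200 to 219 bp. In pairs with an SG-A width under 300 bp the shares were 3.96% at 100 to 119 bp and 2.89% at 120 to 139 bp, with no second rise there. Such short overlapping regions leave little room for distances of this size, so they cannot serve as a contrast to the wide ones.

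**Figure D1:**
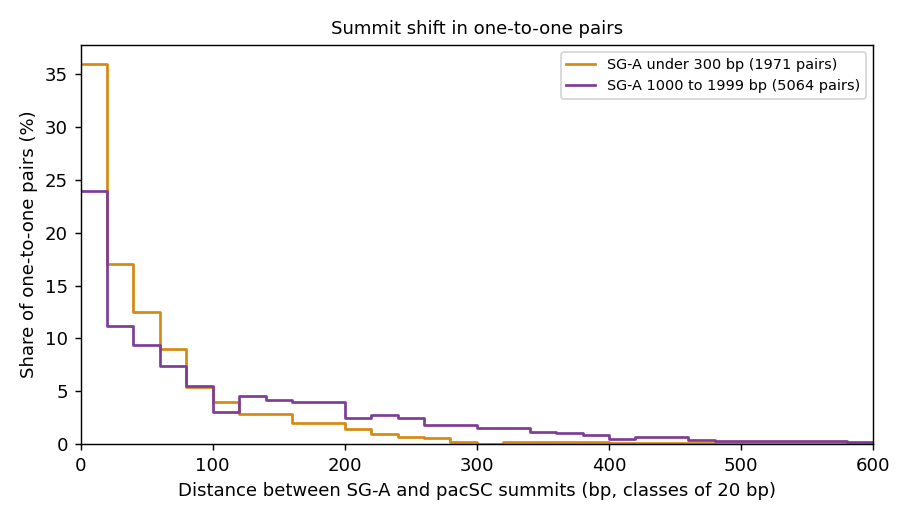
Share of one-to-one pairs (%) by the distance between the SG-A and the pacSC summit (bp, classes of 20 bp), for SG-A regions under 300 bp and of 1000 to 2000 bp. The line for wide regions dips to 3.06% at 100 to 119 bp and stands at 4.56% at 120 to 139 bp.

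Shifts over 1000 bp occurred in 48 pairs, 40 of them with an SG-A width of 2000 bp or more. The largest, among regions of 200 to 5000 bp, was at chr12:81213107-81217396, where the 4290 bp SG-A region met a 397 bp pacSC region with a summit 2603 bp away. At chr12:113382063-113385661 the shift was 2146 bp onto a pacSC region of 264 bp. At chr1:24618324-24623073 and chr19:61300622-61305017 the shifts were 2165 and 1844 bp between regions of nearly equal width (ratios 1.002 and 0.912).

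A comparison with PriSG-A shows how much these measures move between 2 spermatogonial lists. The 6169 SG-A regions with a one-to-one partner in both other lists were used, so both comparisons share the SG-A values. The median width ratio was 0.552 for pacSC and 0.747 for PriSG-A. Median signal per bp was 3.02 in SG-A, 1.02 in pacSC and 1.25 in PriSG-A, and the median difference from SG-A was -1.77 for pacSC (-1.82 to -1.72) and -1.67 for PriSG-A (-1.71 to -1.64). The median summit distance was 65 bp for pacSC and 45 bp for PriSG-A. For SG-A regions of 1000 to 2000 bp, pacSC covered 50.7% of the width on average and PriSG-A 71.1%. The parts of list depth and library number in these values were not tested.

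**Figure D2:**
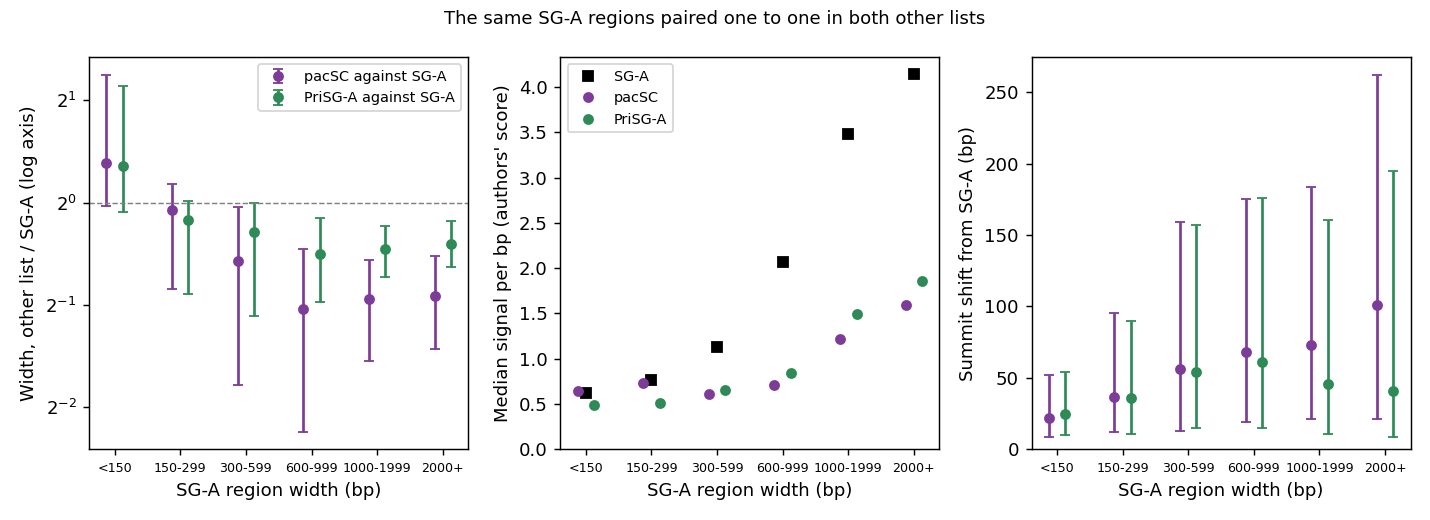
Ratio of region width (log axis), median signal per bp and summit distance (bp) for the same 6169 SG-A regions against their pacSC and PriSG-A partners, by SG-A width; points are medians and bars, in the outer panels, run from the lower to the upper quartile. From 300 bp upward the pacSC width ratio is the lower one, and median signal per bp in both lists lies below that of SG-A.

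Part of the kept SG-A regions were split. Of the 14304 kept, 3031 or 21.2% (20.5 to 21.9) overlapped 2 or more pacSC regions: 2531 overlapped 2, 394 overlapped 3 and 106 overlapped 4 or more. Among regions of −log10 q 5 or more, 0.878% were split. None of the 1609 kept regions under 150 bp was split, and hardly any could be, since regions of a list lie at least 101 bp apart. The share was 19.2% at 600 to 1000 bp (17.5 to 21.1), 26.1% at 1000 to 2000 bp (25.1 to 27.2) and 43.8% at 2000 bp or more (41.3 to 46.2). Wider regions have more room for 2 or more pieces, and the part of this in the rise was not tested. The largest gap between the pieces had a median of 139 bp (quartiles 115 and 218), and the lists hold no gap under 101 bp. The pieces covered 41.7% of the SG-A region at the median. One piece held most of the signal, with a median of 77.9% of the summed pacSC signal value, and a piece held the SG-A summit in 87.8% of split regions.

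At like SG-A width, splitting was more frequent against PriSG-A, a comparison that shares the SG-A list. The 2 shares rest on different SG-A regions, at 1000 to 2000 bp 9793 that overlap PriSG-A and 6918 that overlap pacSC. The PriSG-A list is also the longer one, at 54413 against 32902 autosomal regions, and the part of list length was not tested. At 1000 to 2000 bp, 34.2% of the SG-A regions overlapping PriSG-A met 2 or more of its regions (33.3 to 35.2), against the 26.1% for pacSC. At 2000 bp or more the PriSG-A share was 58.9% (56.8 to 61.0), and at 600 to 1000 bp it was 24.4% (23.3 to 25.6). Of SG-A regions split in pacSC, 38.2% were also split in PriSG-A, against 31.6% of unsplit kept regions of like width, a difference of 6.56 percentage points (4.57 to 8.54).

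Of the SG-A regions up to 5000 bp, the 4 that met the most pacSC regions were named. Ties at 6 pacSC regions were taken in order of chromosome and start, so the chromosomes of these 4 are no result. At chr1:90134191-90138777 (4587 bp, 1.38 per bp), 9 pacSC regions of 93 to 602 bp covered 38.7% of the SG-A region, each with 0.197 to 0.574 per bp. At chr1:87493958-87498087 (4130 bp, 4.75 per bp) 6 pieces covered 37.7%, and at chr1:90159616-90162904 (3289 bp) 6 pieces covered 56.8%. On chromosome 7, 6 pieces covered 62.4% of 140313307-140316550 (3244 bp, 2.87 per bp), and the strongest piece had 0.990 per bp. All 4 were listed in PriSG-A, and those on chromosome 1 in rST. Of all kept SG-A regions of 2000 bp or more, 100% were in PriSG-A and 48.0% in rST.

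Joining, the opposite case, was rare. Of 17563 pacSC regions already listed, 407 or 2.32% (2.11 to 2.55) overlapped 2 or more SG-A regions. Their median width was 784 bp. Of these, 45.7% lay in the last 10 Mb of a chromosome, against 15.0% of pacSC regions over a single SG-A region. At equal pacSC width, 6.74% of already listed regions in the last 10 Mb joined several SG-A regions and 1.89% elsewhere, a difference of 4.85 points (3.90 to 5.80). At chr4:79649162-79651155, a pacSC region of 1994 bp and 3.90 per bp joined 5 SG-A regions of 100 to 267 bp, of which the strongest had 3.24 per bp and the others 0.196 to 0.657. At chr12:120804275-120807167, 0.418 Mb from the distal end, a region of 2893 bp and 1.93 per bp joined 5 SG-A regions of 0.259 to 0.971 per bp.

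Presence in the other 2 lists separated the SG-A regions further, within width classes. At 600 to 1000 bp, 34.0% of SG-A regions also in PriSG-A were kept in pacSC (32.7 to 35.3), and 9.04% of those not in PriSG-A (7.68 to 10.6). At 1000 to 2000 bp the shares were 70.4% (69.5 to 71.3) and 11.9% (8.27 to 16.9, on 218 regions), and under 150 bp 8.82% and 3.34%. Over all classes the width-matched difference was 30.2 points (28.8 to 31.6), although the widest class held only 5 regions absent from PriSG-A. Regions also in PriSG-A had the higher signal per bp within each class, with medians of 2.88 and 0.941 at 1000 to 2000 bp. When −log10 q was matched too, the difference was 17.9 points (12.8 to 23.1). This value used 27677 of the 32431 regions also in PriSG-A, because classes under 5 regions were left out. The kept share of the regions used was 28.7%, against 37.4% of all 32431. The 2 differences thus rest on different regions, and the part of −log10 q in their gap was not tested.

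Kept SG-A regions reappeared in rST far more often than unkept ones. At equal width 23.1% of kept and 1.27% of unkept SG-A regions overlapped an rST region, a difference of 21.8 points (21.1 to 22.6). At 2000 bp or more the shares were 48.0% and 4.56%. Among pairs with an SG-A width of 1000 to 2000 bp, those with an rST region had a median width ratio of 0.617 (0.607 to 0.631), against 0.426 (0.415 to 0.438) for those without. Newly listed and already listed pacSC regions of equal width were in rST at 7.64% and 8.45%, a difference of -0.813 points (-1.39 to -0.230). With −log10 q matched too the shares were 7.63% and 7.37%, and the interval of the difference included 0 (-0.308 to 0.831).

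Position along the chromosome separated regions of equal width. In the last 10 Mb, 27.2% of 9207 SG-A regions were kept, against 15.1% elsewhere at the same width, a difference of 12.1 points (11.3 to 12.9). Each width class had the higher share there. Among regions of −log10 q 5 or more the difference was 30.8 points, and with a zone of 20 Mb it was 7.72. Under 150 bp the shares were 12.4% (11.5 to 13.5) in the last 10 Mb and 3.14% (2.97 to 3.33) elsewhere. At 600 to 1000 bp they were 47.6% (44.0 to 51.2) and 26.3% (25.2 to 27.4), and at 2000 bp or more 95.1% (90.9 to 97.4) and 77.0% (74.99 to 78.8). At 1000 to 2000 bp the median SG-A signal per bp was 2.71 in the last 10 Mb and 2.86 elsewhere.

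Newly listed pacSC regions were also more frequent at distal ends. At equal pacSC width, 67.0% of 8365 regions in the last 10 Mb were new and 41.6% elsewhere, a difference of 25.4 points (24.4 to 26.5), or 16.6 among regions of −log10 q 5 or more and 2.43 with a reciprocal overlap of 50%. Under 150 bp the shares were 82.7% (81.5 to 83.9) and 57.7% (56.7 to 58.6), and at 600 to 1000 bp 35.1% (31.7 to 38.7) and 11.1% (10.1 to 12.3). At 2000 bp or more, 9 of 63 and 5 of 78 were new, and the intervals overlapped. Median signal per bp of pacSC regions was lower in the last 10 Mb than elsewhere in each width class under 1000 bp. The values were 0.430 against 0.461 under 150 bp and 1.15 against 1.24 at 600 to 1000 bp. In the wider classes it was higher there, 2.03 against 1.69 at 1000 to 2000 bp and 2.42 against 2.21 at 2000 bp or more. Both shares were therefore higher near the end, kept SG-A regions and new pacSC regions alike. Per Mb, the pacSC list held 44.0 regions near the distal end and 11.03 elsewhere, covering 1.55% and 0.393% of bases, so an overlap with pacSC also had more bases to fall on there. The part of this density in the kept share was not tested.

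**Figure D3:**
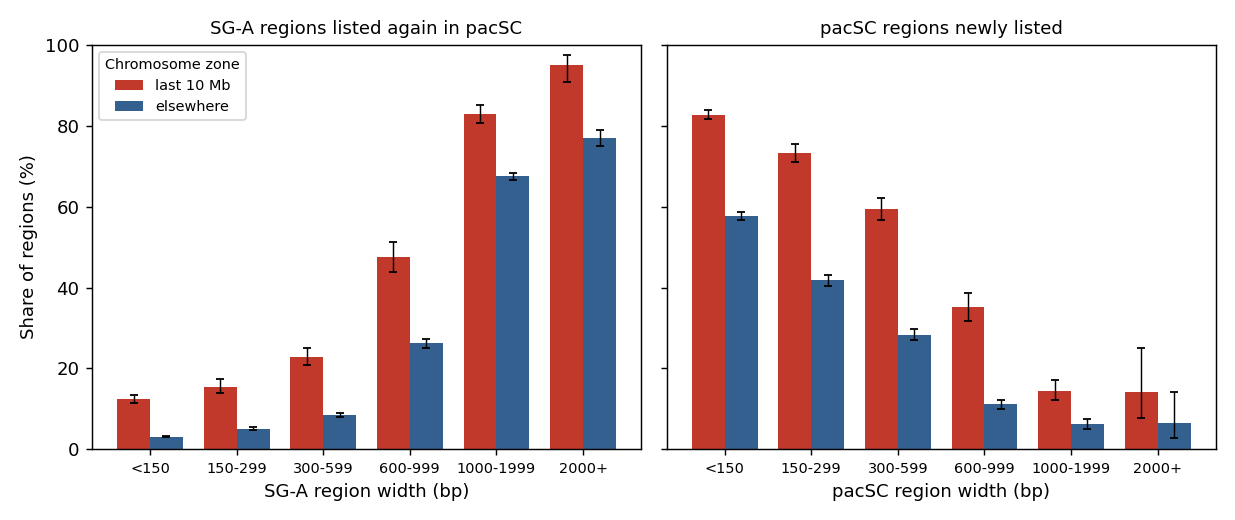
Share (%) of the SG-A list with a pacSC overlap and of the pacSC list without an SG-A overlap (with 95% Wilson intervals), by region width, in the last 10 Mb of chromosomes 1 to 19 and elsewhere. The bars for the last 10 Mb are the higher ones in each width class, from 12.4% against 3.14% for SG-A regions under 150 bp to 95.1% against 77.0% at 2000 bp or more.

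With distance from the distal end, standardised to the widths of the whole list, the kept share of SG-A regions was 44.4% in the last 1 Mb (41.4 to 47.4) and 38.6% between 1 and 2 Mb. It was 29.7% between 2 and 5 Mb, 21.2% between 5 and 10 Mb, 17.2% between 10 and 20 Mb and 14.4% between 40 and 80 Mb (14.1 to 14.8). The new share of pacSC regions was 74.1% in the last 1 Mb (72.0 to 76.3) and 73.9% between 1 and 2 Mb (71.8 to 76.1), which did not differ beyond their intervals. It was 68.2% between 2 and 5 Mb, 54.7% between 5 and 10 Mb and 36.0% between 40 and 80 Mb. At the centromeric end the differences were taken against all other regions, which include the last 10 Mb and its high shares. They are therefore not directly comparable with the distal ones. In the first 10 Mb, 20.8% of SG-A regions were kept against 15.7% elsewhere at equal width, a difference of 5.13 points (4.36 to 5.91). The new share of pacSC regions differed by 2.18 points (0.524 to 3.83). By distance from that end, the standardised new share was 41.4% in the first 1 Mb and 52.0% between 2 and 5 Mb. It was 50.1% between 5 and 10 Mb, 39.7% between 20 and 40 Mb and 51.2% beyond 80 Mb.

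**Figure D4:**
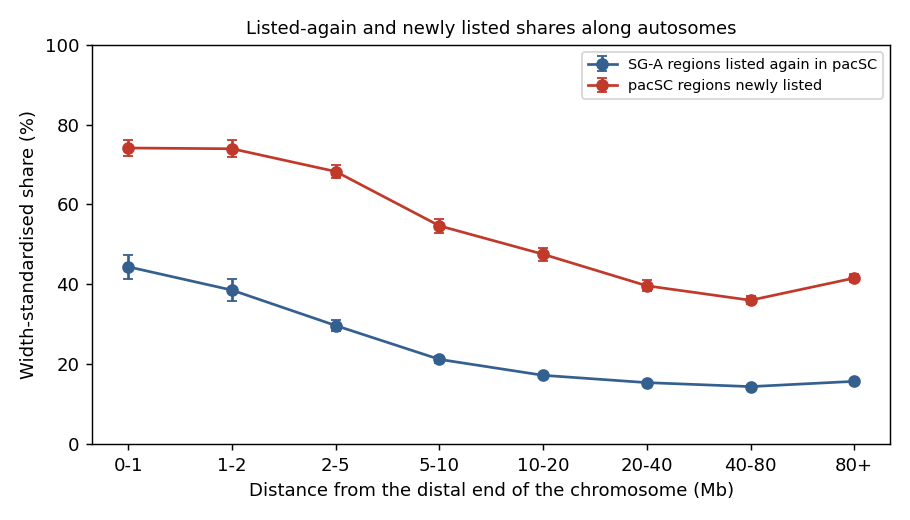
Width-standardised share (%) of SG-A regions kept in pacSC and of pacSC regions that were new, by distance from the distal chromosome end (Mb), with 95% intervals. The kept share is 44.4% in the last 1 Mb, the new share is 74.1% there and 73.9% between 1 and 2 Mb, and both shares have their lowest points between 40 and 80 Mb.

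Wide shared regions near the distal end were also closer to their SG-A width. For SG-A regions of 1000 to 2000 bp, the median width ratio was 0.739 in the last 10 Mb (0.703 to 0.762, 664 pairs) and 0.469 elsewhere (0.460 to 0.479, 4400 pairs). The median difference in signal per bp, pacSC minus SG-A, was -1.21 (-1.31 to -1.15) and -2.19 (-2.22 to -2.15). At 2000 bp or more the width ratios were 0.703 and 0.421. Under 150 bp, where pacSC regions were the wider ones, the ratio was 1.60 in the last 10 Mb (1.40 to 1.82) and 1.43 elsewhere (1.34 to 1.51), with overlapping intervals. Over all widths, the pacSC region was at least 2 times as wide in 11.1% of distal pairs and 4.14% of others. The median summit distance was 70.5 bp (62 to 82) in the last 10 Mb and 74 bp (70 to 79) elsewhere at 1000 to 2000 bp. It was longer in the last 10 Mb at 150 to 300 bp, 57 bp (46 to 73) against 38.5 bp (33 to 45), and under 150 bp it was 37 bp (32 to 44) against 28 bp (24 to 32). Splitting was slightly rarer at distal ends at equal width, 15.1% against 16.7% of kept regions, a difference of -1.61 points (-3.05 to -0.164).

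The SG-A list showed no such distal rise against the other 2 lists. At equal width, 34.0% of SG-A regions in the last 10 Mb overlapped PriSG-A and 38.2% elsewhere, a difference of -4.23 points (-5.01 to -3.44). For rST the shares were 3.85% and 3.94%, a difference of -0.0901 points (-0.471 to 0.291). At 1000 to 2000 bp, the PriSG-A to SG-A width ratio was 0.656 in the last 10 Mb (646 pairs) and 0.711 elsewhere (5603 pairs). For rST these ratios were 0.159 (0.125 to 0.190) and 0.151 (0.142 to 0.163). These comparisons share the SG-A list with the comparison to pacSC.

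The distal difference was present on each autosome, in varying size. The width-matched kept share was higher in the last 10 Mb on 19 of 19 chromosomes, with an interval above 0 on 18. It was highest on chromosome 7, at 38.7% against 16.5% elsewhere, and on chromosome 2, at 37.97% against 15.2%. On chromosome 8 it was 18.8% against 17.1%, with a difference of 1.69 points (-0.906 to 4.29). The newly listed share was likewise higher on 19 of 19, with an interval above 0 on 18. The gap was smallest on chromosome 15, at 50.2% against 48.5%, with a difference of 1.71 points (-3.22 to 6.64), and largest on chromosome 7, at 73.1% against 28.3%. Within the class of 1000 to 2000 bp, the median width ratio was higher in the last 10 Mb on 19 of 19, although some chromosomes had few such pairs (10 on chromosome 18).

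**Figure D5:**
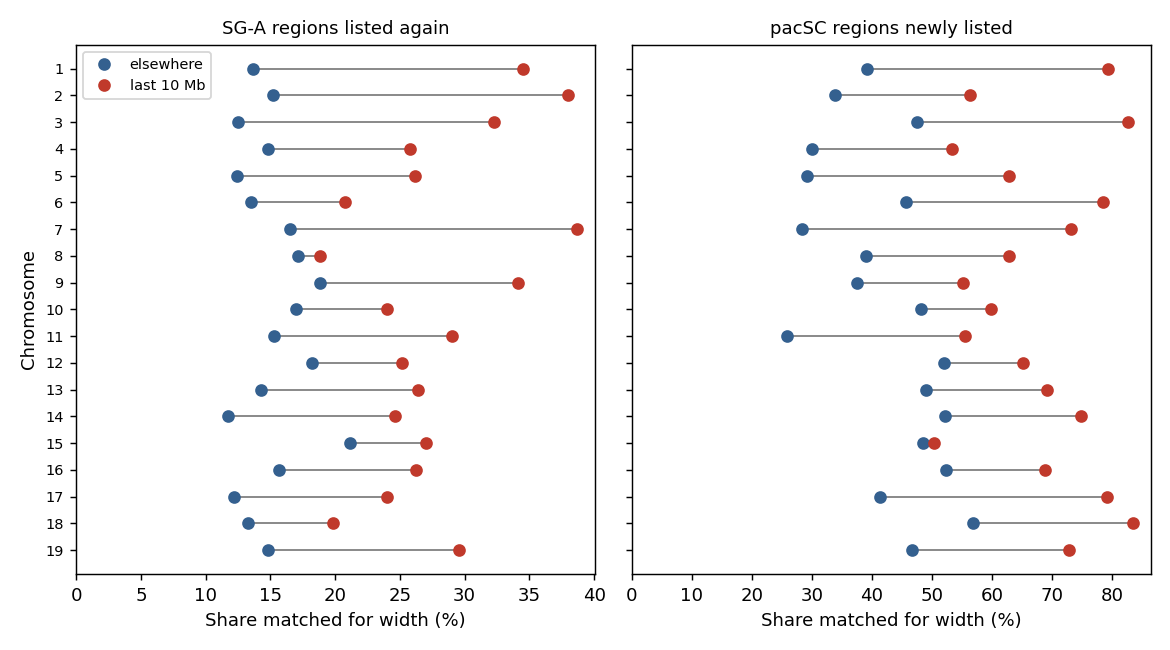
Width-matched share (%) of SG-A regions kept in pacSC and of pacSC regions that were new, in the last 10 Mb and elsewhere, for chromosomes 1 to 19. The point for the last 10 Mb lies to the right on each chromosome, with the smallest gaps on chromosome 8 for kept and chromosome 15 for new regions.

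The kept share of a whole chromosome ran from 13.0% on chromosome 1 (12.2 to 13.9) to 22.0% on chromosome 19 (20.4 to 23.8), the longest and the shortest by listed span. Across the 19 chromosomes, which share both lists, it had a Spearman correlation of -0.711 with that span. Outside the last 10 Mb and at matched width the correlation was -0.128. This value changes both the zone and the matching, and their separate parts were not tested. The width ratio of pairs of 1000 to 2000 bp outside the last 10 Mb had a correlation of -0.607 with span, from 0.352 on chromosome 5 to 0.563 on chromosome 12.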

How the data were processed

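Each stage has 1 deposited narrowPeak list over all its replicates. The PriSG-A list was assigned by exclusion, as its deposited name is garbled. Per the submitters' processing notes, Bowtie2 2.2.5, Bowtie, SAMtools and mm10 were named, without a role. No label or header names the peak caller, its settings, how replicates were pooled or any Tn5 shift of reads. The authors' deposited score is the signal value per bp times 1000, capped at 1000. The deposited signal value is an area, the deposited −log10 q stands per peak, and the summit offset is in bp. Peaks ran past the last GRCm38 gene on 10 of 19 autosomes, by up to 7.20 Mb on chromosome 7, so positions are not on mm10. They are printed as the files give them, 1-based, and no sequence is shown.

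Overlaps were computed in Python 3.11.15 with numpy 2.4.6, pandas 2.3.3 and scipy 1.17.1, tested on simulated lists. Summits are start plus offset. Distal distance runs from the summit to the last base listed on that chromosome in any of the 4 lists. Matching used 6 width classes, or these with 8 classes of −log10 q, weighted by the regions of the zone or group, with classes under 5 regions on either side left out. Named regions followed a rule: on autosomes other than 18 and up to 5000 bp, the 4 most extreme by each measure and the 2 pairs nearest the medians. Members and lists were chosen with earlier results of these data known. Libraries within a stage could not be separated, and whether they came from separate animals is not stated.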

Additional observations from a re-analysis of the deposited data

How the results depend on the processing

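Of 60 alternative values, 18 stayed within the interval of the reported value, 42 moved and none reversed. Reversed meant a change of sign, or for ratios a crossing of 1. Shares of regions and absolute summit distances cannot reverse by this rule, so the lack of reversals says nothing about them. A reciprocal overlap removes split and joined regions by construction. It also leaves out pairs with a width ratio below 0.5 or above 2 and favours pairs that hold the summit. Its width ratio and summit share are therefore partly set by the rule. For the other settings the cause was not tested. No paired analysis was possible because a stage's libraries share 1 peak list, which also kept any replicate from being left out. Read depth is unknown, which limits comparisons of list length and of signal.

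Among regions of −log10 q 5 or more, the kept share was 18.99%, the new share 15.5%, the split share 0.878%, the joined share 0.167%, the width ratio 0.677, the ratio of signal per bp 0.549 and the summit held in 99.3%. The wide-to-narrow difference in kept share (reported classes: 74.4 points) was 31.4, the distal differences were 30.8 (kept) and 16.6 (new), and the PriSG-A difference was 28.8 points. With a reciprocal overlap of 50% these values were 6.58%, 82.9%, 0%, 0%, 0.723, 0.524, 97.9%, 23.7, 7.97, 2.43 and 17.1, with a summit distance of 56 bp. With the SG-A list cut to the pacSC length by signal value they were 36.5%, 52.4%, 25.0%, 0.345%, 0.506, 0.379, 86.6%, 69.3, 16.6 (kept) and 39.0 (PriSG-A), with a summit distance of 72 bp. The width ratio was 0.514 with all pieces counted. The distal differences in kept and new share were 18.2 and 28.6 points for a zone of 5 Mb, 7.72 and 21.8 for 20 Mb, and 15.9 and 18.8 with 1 region per 100 kb window. The PriSG-A difference was 17.9 when −log10 q was matched too, on 27677 of the 32431 regions also in PriSG-A.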
